A study of Mus musculus with 88 samples.

Results

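The 98 genes described here are the protein-coding nuclear genes whose symbols carry the prefixes of oxidative phosphorylation subunits: Ndufa, Ndufb, Ndufc, Ndufs and Ndufv, Sdha to Sdhd, Uqcr, Cox4i, Cox5 to Cox8, and Atp5. They were picked by symbol alone from the gene annotation, with no measured value. Of the 98, 36 encode subunits of complex I, 4 of complex II, 8 of complex III, 19 of complex IV and 17 of complex V, the ATP synthase. The remaining 14 encode assembly factors and other proteins that the same prefixes take in. A further 13 symbols with these prefixes are pseudogenes or non-coding genes and were left out; reads of such near-identical copies can be split among the copies, so small differences of single members are uncertain. All 98 genes are in the mesoderm table of 53697 genes and in the endoderm table of 54393 genes, 97 are in the embryoid body table of 26007 genes, and 95 symbols are in the single-cell table of 15830 genes.

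Oxidative phosphorylation is carried out on the inner mitochondrial membrane. Complexes I and II take electrons from NADH and succinate, complex III passes them to cytochrome c, complex IV reduces oxygen, and the ATP synthase uses the resulting proton gradient. Most subunits are nuclear genes, whereas a core set of subunits is encoded in mitochondrial DNA. Pluripotent cells are known for relying on glycolysis to a large extent, and several complex IV subunits exist as tissue-specific isoforms.

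The study compared mouse embryonic stem cells (ESCs) that lack a subunit of Polycomb repressive complex 2, a histone methyltransferase that represses developmental genes, with WT ESCs. In the directed series, E14 WT cells, Mtf2 null cells made with a homozygous gene trap (Mtf2GT/GT), and Jarid2 null cells were kept undifferentiated in serum and LIF or driven in monolayer for 5, 24 and 48 h toward mesoderm or endoderm, with 2 libraries per genotype and time and 24 libraries per series. Directed cultures received Activin A, CHIR99021 and FGF2, with BMP4 added for mesoderm, for 24 h, and then A-83-01 with BMP4 for mesoderm or Activin A with DM3189 for endoderm. In the bulk embryoid body series, the lines labelled Mtf2 null, Jarid2 null and Eed null were each paired with a control line (Pcl1-3 WT, JM8 and J1) on days 0, 2, 4 and 7, with 1 sample per line and day. The bulk day 0 samples are named mono, for monolayer, and those of later days eb. The single-cell series held undifferentiated cells on day 0 and embryoid bodies on days 4, 7 and 10. It had 1 library for each day of the WT line and of the lines null for Mtf2, for Jarid2 and for Eed. The study names Pcl1-3 WT, JM8 and J1 as background-matched controls of the Mtf2, Jarid2 and Eed null lines. In the directed and single-cell series, which use E14 WT, null genotype and line background cannot be told apart. Each null genotype was a cell line and the study calls the 2 directed libraries of a condition technical duplicates, so the p-values measure the technical spread between libraries and not that between separate cultures or clones.

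Total counts ran from 9111880 to 16898264 per library in the mesoderm series and from 9889592 to 16372804 in the endoderm series. Mtf2 was at 30.2 to 38.2 CPM (counts scaled to a common library size, effective after TMM normalisation) across the 16 directed Mtf2 null libraries against 206 to 509 CPM across the 16 WT libraries, whereas Jarid2 was at 297 to 329 CPM in undifferentiated Jarid2 null cells and 352 to 473 CPM in WT, a gene-level count that does not check the deleted part. In the embryoid body series the Mtf2 level went against the label: on days 0, 2, 4 and 7, Mtf2 was at 324, 227, 232 and 166 CPM in the samples labelled Mtf2 null against 413, 433, 317 and 385 in Pcl1-3 WT. Jarid2 was at 507, 636, 272 and 322 CPM in JM8 and at 603, 676, 247 and 223 CPM where the label was Jarid2 null. Eed was at 103, 247, 78.5 and 52.9 CPM in J1 and at 109, 205, 107 and 58.8 CPM where the label was Eed null. These, too, are gene-level counts that do not check a deleted part. The names of the directed series are those of the protocols: after 48 h toward endoderm, the 4 endoderm markers (Sox17, Foxa2, Cxcr4, Gata6) summed to only 1.47 to 2.36 CPM in WT, below the 3.37 to 3.88 CPM of undifferentiated cells, and after 48 h toward mesoderm the 6 mesoderm markers summed to 13.5 to 16.1 CPM against 4.73 to 5.45 CPM. The 6 pluripotency markers (Pou5f1, Sox2, Nanog, Zfp42, Esrrb, Klf4) still summed to 1500.0 to 1532 and 1165 to 1253 CPM at 48 h in WT, against 2126 to 2590 and 2123 to 2497 CPM in undifferentiated cells. In bulk samples, fewer cells of a type and less RNA per cell cannot be told apart.

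Promoters of 78 of the 97 symbols were found in RefSeq (GRCm38.p6) and searched in the 250 bases before the start, on both strands, for 3 motifs of factors known to act at mitochondrial genes. The NRF1 motif (GCGCA, any base N, GCGC) was in 14 of the 78 (17.9%) against 4.23% of 27025 genes with a window, and the GABPA motif CCGGAAG was in 16 (20.5%) against 7.83%. The YY1 motif AAGATGG was in 1 (1.28%) against 5.18%. A gene was counted once per motif and under each motif that its window held, and 27 of the 78 (34.6%) held at least 1 of the 3, against 15.8% of all genes. The windows of the members held a median of 14.5 CpG dinucleotides, against 6 for all genes. NRF1 motifs lay in 6 of 32 complex I windows, in 4 of 13 complex V windows and in none of 5 complex III windows, whereas GABPA motifs lay in 2 of 5 complex III windows. The 120 bases before the start are printed for the 6 genes whose values recur below, with a matched motif in capitals: Ndufa12 and Ndufs5, which were higher in Mtf2 null cells at every time, Uqcrh, whose difference from WT was the lowest of the members in Jarid2 null cells at 24 h toward mesoderm, Cox7c, which fell during differentiation, and the isoform genes Cox6b2 and Cox7a1. Their positions on GRCm38.p6 are chr10:94198915-94199034 on the plus strand for Ndufa12, chr4:123718187-123718306 on the minus strand for Ndufs5, chr4:116075071-116075190 on the minus strand for Uqcrh, chr13:86046796-86046915 on the minus strand for Cox7c, chr7:4753095-4753214 on the minus strand for Cox6b2 and chr7:30184051-30184170 on the plus strand for Cox7a1. Capitals mark an NRF1 motif in Ndufs5 and a GABPA motif, read on the opposite strand, in Uqcrh, and the other 4 windows held none of the 3 motifs in their 250 bases. The starts used here are those of RefSeq. In the gene annotation that gave the members, Ndufa12 starts at 94198720, so its printed window lies inside the gene. Cox7c starts there at 86046904 on the minus strand, so most of its printed window lies inside the gene.
Ndufa12: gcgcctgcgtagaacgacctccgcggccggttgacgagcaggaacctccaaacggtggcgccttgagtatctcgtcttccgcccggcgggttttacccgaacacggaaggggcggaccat
Ndufs5: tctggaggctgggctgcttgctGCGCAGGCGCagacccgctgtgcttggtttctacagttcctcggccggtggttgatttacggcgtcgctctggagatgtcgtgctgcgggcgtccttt
Uqcrh: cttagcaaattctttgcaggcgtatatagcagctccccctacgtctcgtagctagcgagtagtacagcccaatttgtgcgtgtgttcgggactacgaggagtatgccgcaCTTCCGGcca
Cox7c: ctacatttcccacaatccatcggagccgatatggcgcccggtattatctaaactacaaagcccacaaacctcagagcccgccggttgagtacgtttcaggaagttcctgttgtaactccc
Cox6b2: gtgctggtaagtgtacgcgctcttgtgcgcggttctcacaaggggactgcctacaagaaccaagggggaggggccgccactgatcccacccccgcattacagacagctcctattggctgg
Cox7a1: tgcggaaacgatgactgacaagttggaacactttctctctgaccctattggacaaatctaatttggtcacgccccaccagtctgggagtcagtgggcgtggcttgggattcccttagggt

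The first comparison asked how the module moved when WT cells left the undifferentiated state. In the mesoderm series, 94 members passed the filter on low counts, and 24, 37 and 48 of them were lower than in undifferentiated cells at 5, 24 and 48 h, while 11, 4 and 3 were higher (edgeR quasi-likelihood test, Benjamini-Hochberg adjusted p under 0.05 over all genes tested). Of all genes tested, 15.5%, 15% and 14.6% were lower and 21.1%, 23.9% and 20.8% higher at these times. The median log2 fold change of the members was -0.19, -0.30 and -0.44, and that of all genes -0.08, 0.01 and 0.00. In the endoderm series, 49, 52 and 54 of 93 members were lower at 5, 24 and 48 h, against 12.4%, 13.8% and 14.9% of all genes, and 1, 3 and 2 were higher, against 17.8%, 19.2% and 19.9%; the members' medians were -0.45, -0.43 and -0.40.

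Each of the 5 complexes had a median below 0 at 48 h. Toward mesoderm at this time, 7 of 8 complex III genes were lower (median log2 fold change -0.82), beside 8 of 16 of complex IV (-0.49), 9 of 16 of the ATP synthase (-0.57), 16 of 36 of complex I (-0.34) and 2 of 4 of complex II (-0.34). At 48 h toward endoderm, all 8 complex III genes tested were lower (-0.67), as were 11 of 15 of complex IV (-0.76), 12 of 16 of the ATP synthase (-0.56), 17 of 36 of complex I (-0.36) and 1 of 4 of complex II (-0.16). Among the 14 other members, mostly assembly factors, 6 and 5 were lower and 2 and 1 higher.

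**Figure D1:**
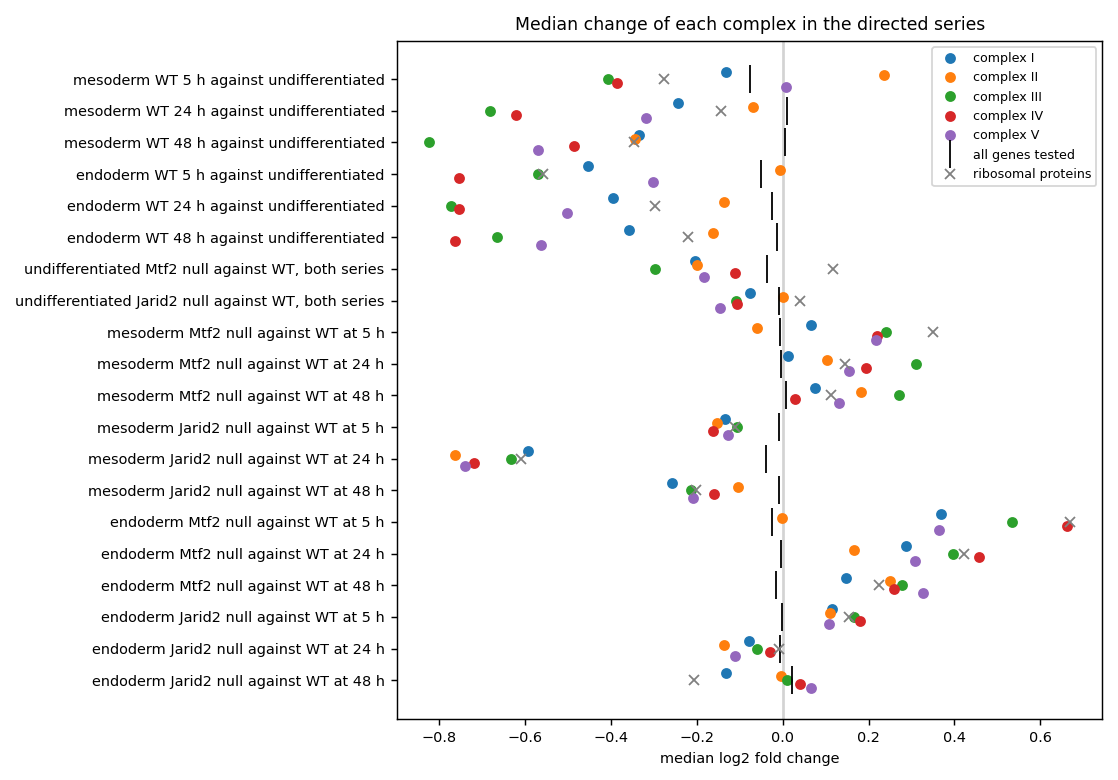
Median log2 fold change (x axis) of the members of each complex (coloured points) in each comparison of the directed series (y axis), with the median of all genes tested as a black bar and of the 77 ribosomal protein genes as a cross. All complexes lie left of 0 at 48 h in WT and in mesoderm Jarid2 null cells at 24 h, where complex V sits at -0.74, and complexes III and IV lie at 0.53 and 0.66 in endoderm Mtf2 null cells at 5 h.

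Small subunits of the membrane part were among the members that moved most. Cox7c, a nuclear subunit of complex IV, was at 239 and 254 CPM in the 2 undifferentiated WT libraries of the mesoderm series and at 135 and 109 CPM at 48 h. The corresponding values toward endoderm were 225 and 264 CPM, then 115 and 112 CPM. The groups did not overlap in either series, and Cox7c fell by 1.01 ± 0.16 (SE) on the log2 scale toward mesoderm and by 1.11 ± 0.14 toward endoderm (edgeR adjusted p = 3.75e-05 for mesoderm). Atp5l, subunit g of the ATP synthase, was at 178 and 197 CPM in undifferentiated cells and at 96.1 and 69.1 CPM at 48 h toward mesoderm (log2 fold change -1.18 ± 0.18). Ndufb4, an accessory subunit of complex I, fell by 1.17 ± 0.21 toward mesoderm and by 1.21 ± 0.15 toward endoderm, and Sdhaf4, an assembly factor of complex II, fell by 1.15 ± 0.22 and 1.28 ± 0.18. Uqcrq, a small subunit of complex III, fell by 1.34 ± 0.11 at 24 h toward endoderm.

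Uqcrh, the hinge protein of complex III, was at 83.9 and 109 CPM in undifferentiated cells and at 44.4 and 21.7 CPM at 48 h toward endoderm (log2 fold change -1.54 ± 0.20). Its 2 libraries at 48 h differed widely from each other, and library 2 was also the lower of the pair toward mesoderm (76.5 and 37.8 CPM). Leaving out WT library 2 at 48 h left 27 members called toward mesoderm (2 higher, 25 lower) and 37 toward endoderm (1 higher, 36 lower).

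Subunits listed as core, and the accessory Ndufa10, moved in either direction, depending on the gene and time. Ndufs1, the iron-sulfur subunit of the complex I peripheral arm, was lower at 48 h in both series (-0.70 ± 0.10 and -0.49 ± 0.11), and Uqcrfs1, the Rieske protein of complex III, likewise (-0.53 ± 0.14 and -0.37 ± 0.10). Ndufv1, which binds NADH, was higher at 5 h toward mesoderm (0.55 ± 0.12), as were Sdha, the flavoprotein of complex II (0.46 ± 0.11), Uqcrc1 (0.56 ± 0.15), Cox4i1 (0.52 ± 0.16) and Atp5a1, the ATP synthase alpha subunit (0.40 ± 0.13). Ndufa10, an accessory subunit of complex I, rose in both series at 5 h (0.72 ± 0.13 and 0.45 ± 0.15). Atp5b, the catalytic beta subunit, passed the test at no time in WT.

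Other lists moved at the same times. Of 77 ribosomal protein genes, 21, 19 and 27 were lower toward mesoderm at 5, 24 and 48 h (6, 3 and 0 higher) and 51, 34 and 31 toward endoderm, and of 19 glycolytic genes 12, 13 and 14 were lower toward mesoderm and 13, 14 and 14 toward endoderm. The 13 mitochondrially encoded subunit genes held 1 higher and 1 lower gene at 48 h toward mesoderm and 2 lower toward endoderm. Of 13 citric acid cycle genes, 5 and 3 were lower at 48 h in the mesoderm and the endoderm series. Among 15 regulators of mitochondrial genes, of which 14 were tested, 2 and 1 were higher and 3 and 3 lower at 48 h, and of 29 assembly factors outside the 98 genes, 8 and 7 were lower. The part of these lists in the result was not tested. With total counts in place of TMM scaling, 9 members were higher and 38 lower at 5 h toward mesoderm, where the median of all genes was then -0.21. The calls at 5 h toward mesoderm fell from 35 to 22, 18 and 16 without WT 5 h library 1, WT 5 h library 2 and undifferentiated WT library 2; without the last of these, the calls were 27 of 41 at 24 h toward mesoderm and 29 of 50 at 5 h toward endoderm.

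Of the isoform genes of complex IV, Cox6b2 rose in both series. Cox6b2, known as the testis isoform of subunit 6b, was at 12.4 and 12.3 CPM in undifferentiated WT cells of the mesoderm series, 20.8 and 22.8 CPM at 5 h, 42.5 and 40.2 CPM at 24 h and 44.2 and 39.5 CPM at 48 h. Each time lay above the undifferentiated level, by 0.82 ± 0.17, 1.74 ± 0.16 and 1.76 ± 0.16 on the log2 scale (edgeR adjusted p = 4.84e-08 at 48 h). Toward endoderm, Cox6b2 went from 11.0 and 11.2 CPM to 14.1 and 14.7, 29.1 and 26.5, and 30.1 and 21.1 CPM, with log2 fold changes of 1.32 ± 0.16 at 24 h and 1.21 ± 0.16 at 48 h. Per kilobase of exon, the ubiquitous Cox6b1 stood at 149 and 138 CPM in undifferentiated WT cells and Cox6b2 at 11.2 and 11.1 CPM.

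Cox4i2, an isoform of subunit 4 known from lung and from low oxygen, and Cox7a1, the heart and muscle isoform of subunit 7a, went the other way at low levels. Cox4i2 was at 2.17 and 2.64 CPM in undifferentiated WT cells of the mesoderm series and at 0.271 and 0.365 CPM at 24 h. Cox7a1 was at 3.94 and 3.83 CPM and then at 1.26 and 0.875 CPM. Per kilobase, undifferentiated WT cells held Cox4i1 at 201 and 156 CPM and Cox4i2 at 2.75 and 3.35 CPM. At 24 h, log2 fold changes were -2.86 ± 0.54 for Cox4i2 and -1.87 ± 0.31 for Cox7a1.

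Ndufa4l2, a paralog of the complex IV subunit Ndufa4 that is known to respond to low oxygen, had the lowest fitted log2 fold change of the members tested at each time in WT. Its WT levels were 15.5 and 8.43 CPM in the undifferentiated libraries of the mesoderm table and 12.5 and 8.99 CPM in those of the endoderm table, and its 2 WT libraries together held 4 counts at 5 h toward mesoderm and 7 toward endoderm. The level at 5 h was lower by a ratio of 60.4 (exact 95% interval 23.3 to 223) toward mesoderm and 38.2 (18.2 to 96.1) toward endoderm; the intervals cover counting error only. At 48 h it remained lower by 15.4 (9.83 to 25.2) and 10.3 (6.73 to 16.7). Ndufa4 itself stood at 80.0 and 92.9 CPM per kilobase in undifferentiated WT cells, where Ndufa4l2 stood at 14.1 and 7.70.

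**Figure D2:**
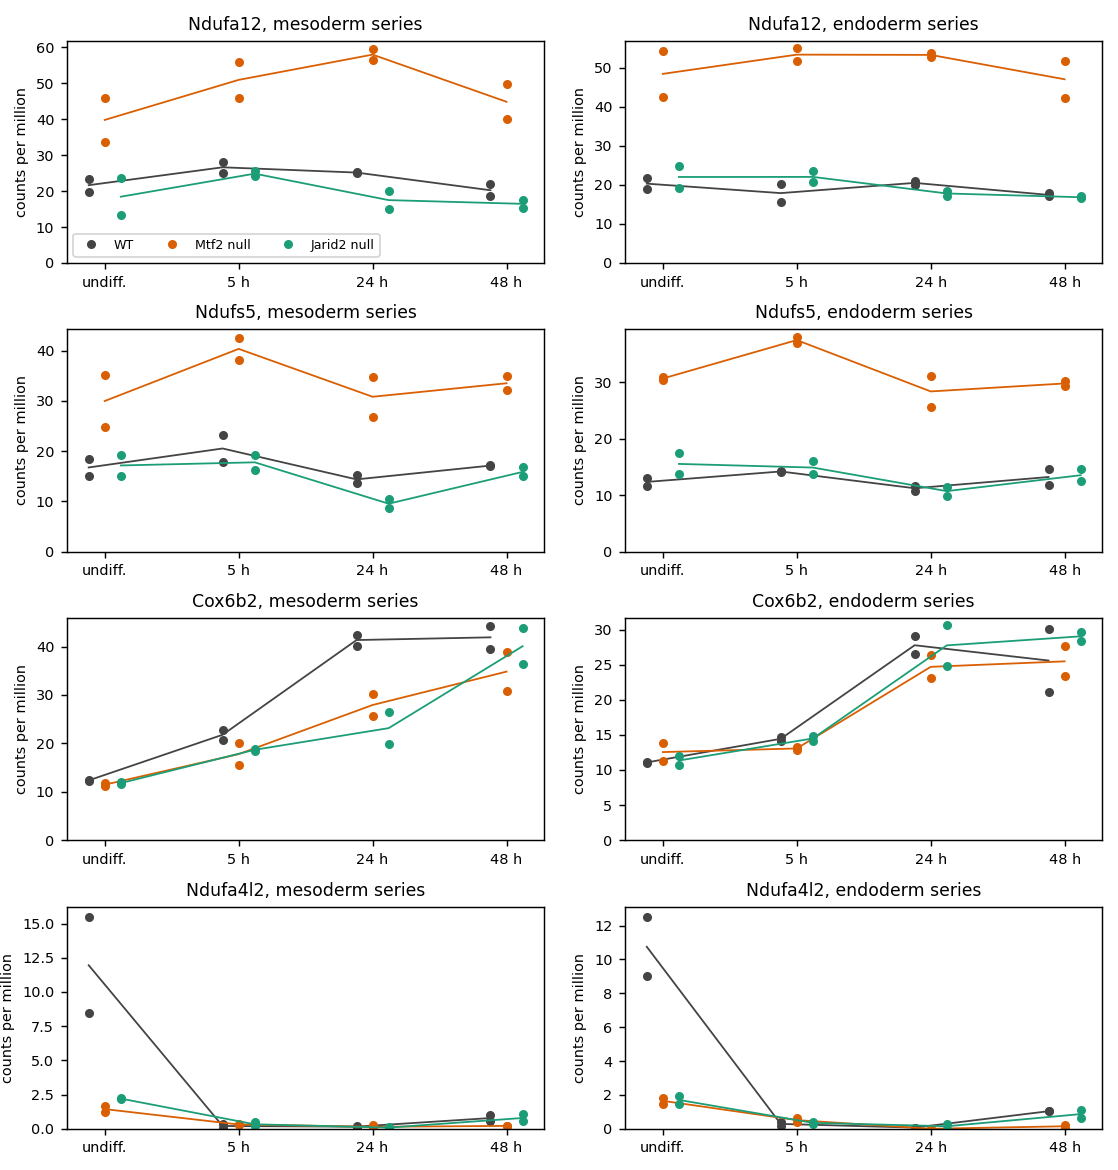
CPM (y axis, from 0) of Ndufa12, Ndufs5, Cox6b2 and Ndufa4l2 in every library of the mesoderm (left) and endoderm (right) series by time (x axis); points are libraries and lines join the means of the 2 libraries of each genotype. Ndufa12 and Ndufs5 lie higher in Mtf2 null cells at each time, Cox6b2 is higher at 24 and 48 h than in undifferentiated cells in each genotype, and Ndufa4l2 is high only in undifferentiated WT cells, at 8.43 to 15.5 CPM.

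The next comparison set the Mtf2 null and Jarid2 null lines before differentiation against E14 WT cells, which are not their background-matched controls. In undifferentiated cells, 36 of 93 members were lower and 7 higher in Mtf2 null than in WT cells over both series (4 libraries per genotype), against 26% and 28.5% of all genes, with a median log2 fold change of -0.18 against -0.04 for all genes. The lower members were 14 of 36 in complex I, 2 of 4 in complex II, 6 of 8 in complex III, 5 of 15 in complex IV, 6 of 16 in the ATP synthase and 3 of 14 others. Ndufaf6, an assembly factor of complex I, was at 5.32 and 5.39 CPM in Mtf2 null libraries of the mesoderm table and 10.7 and 11.9 CPM in WT (log2 fold change -1.18 ± 0.12), and Ndufa6 was lower by 0.75 ± 0.12. Ndufa12, Ndufs5, Ndufa10 (0.74 ± 0.11), Sdha (0.44 ± 0.10) and Atp5a1 (0.40 ± 0.11) were higher in Mtf2 null cells. With total counts alone, the median of all genes moved to -0.25.

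In undifferentiated Jarid2 null cells, which were compared with the same WT libraries, 10 members were lower and 1 higher, against 9.11% and 11.3% of all genes. Uqcrh was at 49.5 and 53.5 CPM in the Jarid2 null libraries of the mesoderm table against 98.6 and 119 CPM in WT, and at 49.9 and 56.6 CPM against 83.9 and 109 CPM in the endoderm table. The difference of -0.99 ± 0.13 on the log2 scale passed the test (edgeR adjusted p = 8.03e-05). Sdhd, a membrane anchor of complex II, and Atp5g1, a gene of the ATP synthase c subunit, were each lower by 0.46, with SE of 0.09 and 0.11. Fitted by table, only 2 members passed in the mesoderm table and 6 in the endoderm table. Undifferentiated libraries of the 2 tables were compared by chi-square per degree of freedom over 13792 genes. In each genotype, libraries of the same number differed less than those of other numbers. The values were 21.2 and 9.1 against 25.2 and 21.5 in WT, and 12.8 and 7.92 against 17.4 and 23.0 in Mtf2 null cells. In Jarid2 null cells they were 7.68 and 5.79 against 8.31 and 13.5, beside 9.05 and 10.9 for the 2 libraries within a table. The labels do not say whether they share a culture. The 4 libraries per genotype may thus not be independent, and the p-values over both series may be too small.

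Ndufa4l2 was lower in both undifferentiated null lines. It was at 1.21 and 1.66 CPM (mesoderm table) and 1.84 and 1.46 CPM (endoderm table) in Mtf2 null cells, and at 2.15 and 2.25 CPM and 1.49 and 1.92 CPM in Jarid2 null cells. Both lie under every WT library, of which the lowest was at 8.43 CPM, and log2 fold changes were -2.85 ± 0.23 and -2.56 ± 0.21 (edgeR adjusted p = 5.50e-08 and 2.24e-06). In counts, WT exceeded Mtf2 null by a ratio of 8.21 (exact 95% interval 5.58 to 12.5) and Jarid2 null by 5.31 (3.93 to 7.30) in the mesoderm table. Cox4i2 was lower in Mtf2 null cells by 2.13 ± 0.38. Of the 19 glycolytic genes, 12 and 13 were also lower in Mtf2 null and Jarid2 null cells, 4 and 1 higher.

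During differentiation toward endoderm, more members were called higher than lower in Mtf2 null cells against WT cells of the same time. There, 45, 38 and 38 of 93 members were higher at 5, 24 and 48 h, against 15.7%, 13.8% and 20.4% of all genes, and 0, 0 and 5 were lower, against 15.3%, 12.4% and 17.5%. The module took 0.797% and 0.782% of all counts in Mtf2 null and 0.700% and 0.709% in WT libraries at 5 h. At 24 h the shares were 0.736% and 0.705% against 0.693% and 0.674%. At 48 h the shares overlapped, at 0.651% and 0.710% against 0.686% and 0.625%. The members' median log2 fold change was 0.39, 0.32 and 0.23, and that of all genes -0.02, 0.00 and -0.02. At 5 h the higher members were 18 of 36 in complex I, 1 of 4 in complex II, 6 of 8 in complex III, 9 of 15 in complex IV, 8 of 16 in the ATP synthase and 3 of 14 others. Toward mesoderm, 12, 13 and 8 of 94 members were higher and 7, 1 and 3 lower, against 14%, 11.2% and 15.2% of all genes higher and 14.7%, 11.7% and 12.7% lower.

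Ndufa12, an accessory subunit of the complex I peripheral arm, was higher in Mtf2 null cells at every time of both series. Toward endoderm, its 2 WT libraries were at 15.7 and 20.1 CPM at 5 h, 20.1 and 20.9 CPM at 24 h, and 17.1 and 17.8 CPM at 48 h. Mtf2 null cells were at 51.8 and 54.9, 53.7 and 52.8, and 42.3 and 51.8 CPM. Every Mtf2 null library thus lay above every WT library, with log2 fold changes of 1.58 ± 0.15, 1.38 ± 0.14 and 1.43 ± 0.15 (edgeR adjusted p = 4.13e-08 at 5 h). Toward mesoderm, Ndufa12 was at 28.1 and 25.2, 25.3 and 25.02, and 18.6 and 21.9 CPM in WT. In Mtf2 null cells it was at 45.9 and 56.0, 56.4 and 59.5, and 49.8 and 39.9 CPM. Again the groups did not overlap, and log2 fold changes were 0.94 ± 0.20, 1.20 ± 0.20 and 1.15 ± 0.20. In undifferentiated cells the difference was already 1.07 ± 0.16.

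Ndufs5, an accessory subunit on the intermembrane face of complex I, followed the same pattern. It was at 14.2 and 14.2 CPM in WT and 37.96 and 36.96 CPM in Mtf2 null cells at 5 h toward endoderm. The log2 fold change was 1.40 ± 0.14 there, 1.34 ± 0.14 at 24 h and 1.17 ± 0.14 at 48 h, and toward mesoderm it was 0.97 ± 0.18, 1.11 ± 0.18 and 0.97 ± 0.18. In undifferentiated cells it was 1.08 ± 0.13. At each time in both series, every Mtf2 null library lay above every WT library for Ndufs5 as well.

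Among complex IV genes, Cox7c was at 306 and 301 CPM in Mtf2 null cells and 144 and 146 CPM in WT at 5 h toward endoderm (log2 fold change 1.07 ± 0.14), and at 229 and 218 CPM against 97.3 and 112 CPM at 24 h (1.09 ± 0.14). Cox6c and Cox7a2, small subunits of the same complex, were higher by 0.99 ± 0.12 and 1.00 ± 0.12 at 5 h. Toward mesoderm, Cox6c was higher by 0.82 ± 0.16 at 24 h and Cox7a2 by 0.65 ± 0.23, whereas Cox6b2 was lower (25.6 and 30.3 CPM against 42.5 and 40.2 CPM, -0.56 ± 0.15). Sdhd was higher by 0.68 ± 0.15 at 5 h toward mesoderm, while Sdhc, its partner in the membrane anchor, was lower by 0.45 ± 0.15. At 48 h toward endoderm, 5 members were lower in Mtf2 null cells; they included Ndufaf4 (-0.75 ± 0.22), Sdhaf3 (-0.93 ± 0.25), Ndufs4 (-0.38 ± 0.13) and Atp5g2 (-0.66 ± 0.24).

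Ribosomal protein genes and markers of the lineage aimed at differed in the same libraries. Of the 77 ribosomal protein genes, 73, 45 and 31 were higher in Mtf2 null cells toward endoderm and 23, 12 and 12 toward mesoderm, and of the 13 mitochondrially encoded genes 7, 6 and 0 were higher toward endoderm and 1, 8 and 0 toward mesoderm, while 3 and 4 were lower at 48 h. The 4 endoderm markers summed to 15.5 to 15.6, 20.7 to 25.8 and 102 to 121 CPM in Mtf2 null cells toward endoderm, against 5.28 to 5.71, 2.43 to 3.05 and 1.47 to 2.36 CPM in WT. Of these markers, 3, 3 and 4 were called higher at 5, 24 and 48 h, and none was at 0 in either genotype. The 6 mesoderm markers summed to 67.2 to 68.7 CPM in Mtf2 null cells and 13.5 to 16.1 CPM in WT at 48 h toward mesoderm, with 2 of 4 tested higher; Mesp1 was at 0 in both of these Mtf2 null libraries. Their part in the calls of the module was not tested.

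Scaling bore on the split of these calls. With total counts in place of TMM factors, 34, 24 and 25 members were higher and 8, 6 and 13 lower toward endoderm, and 6, 12 and 5 were higher and 13, 4 and 12 lower toward mesoderm; medians of all genes were then -0.21, -0.17 and -0.18, and -0.16, -0.07 and -0.10. Leaving out Mtf2 null library 1 at 24 h toward endoderm left 25 calls, and leaving out WT library 2 at 48 h left 24. In the mesoderm series the calls fell to 9, 9, 8 and 11 of 19 at 5 h without Mtf2 null library 1, Mtf2 null library 2, WT library 1 and WT library 2, to 5, 7, 9 and 4 of 14 at 24 h in the same order, and to 4 of 11 at 48 h without either Mtf2 null library.

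The difference between Mtf2 null and WT cells itself changed between undifferentiated cells and 48 h. The interaction term passed the test for 33 of 93 members toward endoderm and 10 of 94 toward mesoderm, all toward higher levels in Mtf2 null cells, against 22% and 18.1% of all genes in either direction and 11.3% and 7.95% in this direction. Toward endoderm these were 8 complex I, 2 complex II, 4 complex III, 6 complex IV and 9 ATP synthase genes with 4 others. Sdhd illustrates it: Mtf2 null libraries went from 64.2 and 73.1 CPM to 70.6 and 76.9 CPM, whereas WT libraries went from 74.9 and 88.2 CPM to 43.2 and 40.3 CPM. Its interaction was 1.07 ± 0.15 on the log2 scale, beside 1.24 ± 0.27 for Uqcrh, 1.23 ± 0.20 for Uqcr11 and 1.34 ± 0.23 for Ndufaf2, an assembly factor of complex I. Toward mesoderm, Uqcr11 (1.22 ± 0.24), Ndufaf6 (1.16 ± 0.29), Ndufb10 (1.03 ± 0.27) and Uqcrq (0.98 ± 0.22) had the largest terms. The endoderm count fell to 18, 12 and 13 without Mtf2 null library 2 at 48 h, undifferentiated Mtf2 null library 1 and WT library 2 at 48 h, and the mesoderm count to 2, 3, 5 and 6 without Mtf2 null library 1 at 48 h, undifferentiated Mtf2 null library 1, WT library 2 at 48 h and undifferentiated WT library 1.

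In Jarid2 null cells the module differed from WT at 24 h toward mesoderm. There, 67 of 94 members were lower and 1, Ndufaf4, was higher (0.58 ± 0.14), against 15.1% of all genes lower and 8.12% higher. The members' median log2 fold change was -0.60 and that of all genes -0.04. Lower were 16 of 16 ATP synthase genes tested, 28 of 36 in complex I, 3 of 4 in complex II, 7 of 8 in complex III, 10 of 16 in complex IV and 3 of 14 others. These WT libraries are also the controls of the Mtf2 null comparison.

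Uqcrh was at 12.4 and 20.9 CPM in the 2 Jarid2 null libraries and at 75.5 and 67.6 CPM in WT. The groups were far apart, and the difference was -2.11 ± 0.26 on the log2 scale (edgeR adjusted p = 2.93e-05). Toward endoderm at the same time it was at 54.7 and 48.3 CPM against 57.8 and 57.4 CPM, and toward mesoderm at 48 h it was at 69.1 and 54.9 CPM in Jarid2 null cells, inside the WT range of 37.8 to 76.5 CPM. Cox6b1, a subunit on the intermembrane face of complex IV, was at 24.2 and 48.1 CPM against 99.4 and 96.1 CPM (-1.45 ± 0.22), and Atp5g1 was at 26.6 and 36.7 CPM against 85.3 and 73.0 CPM (-1.33 ± 0.19). Cox7a2 (-1.39 ± 0.24) and Ndufb3 (-1.34 ± 0.26), a complex I accessory subunit, were next, and among the core subunits Uqcrfs1 was lower by 0.67 ± 0.14, Cox4i1 by 0.59 ± 0.16, Ndufv1 by 0.51 ± 0.13 and Atp5b by 0.48 ± 0.14. Sdhd was at 24.3 and 33.9 CPM against 64.6 and 59.2 CPM.

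The 2 Jarid2 null libraries differed from each other. Against the WT mean, the median log2 ratio over the 94 members was -0.78 in library 1 and -0.44 in library 2, with 86 and 88 of 94 members below the WT mean. Complex V stood at -1.001 and -0.55 and complex I at -0.79 and -0.44, whereas the 14 others stood at -0.14 and -0.09. The share of all counts on the module was 0.484% and 0.593% in Jarid2 null and 0.762% and 0.740% in WT. Ribosomal protein genes moved with it: their share was 2.96% and 4.01% against 5.03% and 4.87%, 68 of 77 were called lower, and their median log2 ratio was -0.89 in library 1 and -0.42 in library 2. Of 19 glycolytic genes 15 were lower, of 13 citric acid cycle genes 7, and of the 13 mitochondrially encoded genes 1. The pluripotency markers summed to 1350 to 1510 CPM against 2027 to 2131 CPM in WT, with 4 of 6 lower and none at 0, and the 4 primitive streak markers to 30.3 to 47.0 CPM against 69.3 to 72.9 CPM, with 2 of 3 tested lower. The part of these lists in the result was not tested. Without Jarid2 null library 1, 14 members were lower and none higher (median -0.46), and without WT library 1, 33 were lower and 1 higher (median -0.55).

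**Figure D3:**
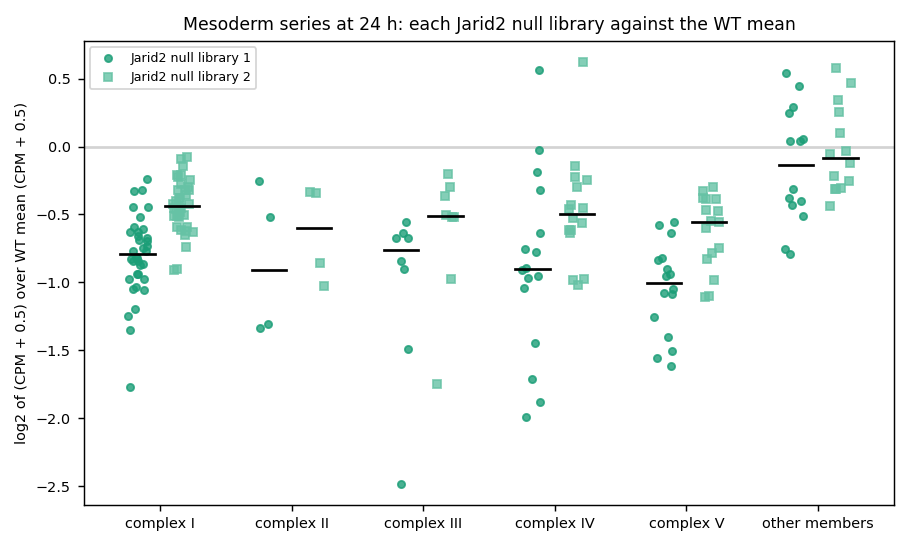
Log2 ratio (y axis) of each member's CPM in Jarid2 null library 1 (circles) and library 2 (squares) to the mean of the 2 WT libraries at 24 h toward mesoderm, by complex (x axis), with 0.5 CPM added to both and black bars at the medians. Nearly all points of complexes I to V lie below 0, lower in library 1 than in library 2, while the other members lie around 0.

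At the other times the Jarid2 null and WT libraries differed little by this test. No member passed at 5 h or 48 h toward mesoderm or at 5 h or 24 h toward endoderm, where 0.212%, 2.21%, 0.151% and 0.332% of all genes passed in edgeR. At an unadjusted p under 0.05 there were 5, 13, 8 and 4 members, and DESeq2 also called 0 in each of the 4. The members' medians were -0.12, -0.21, 0.12 and -0.06. At 48 h toward endoderm, 6 members passed, against 7.22% of all genes. Uqcrh (0.73 ± 0.20) and Sdhd (0.40 ± 0.11) were higher, and Ndufv2 (-0.48 ± 0.10), Atp5h (-0.45 ± 0.12), Uqcrc2 (-0.39 ± 0.10) and Sdhaf3 (-0.85 ± 0.25) lower. These calls fell to 1 without Jarid2 null library 1 and to 0 without Jarid2 null library 2 or WT library 2.

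The interaction of Jarid2 genotype with time passed for 5 of 93 members toward endoderm (4 higher, 1 lower), against 5.62% of all genes (2.31% and 3.31%), and for 0 of 94 toward mesoderm, against 1.77%, where 11 had an unadjusted p under 0.05 and DESeq2 called 1. Toward endoderm the terms were 2.40 ± 0.65 for Ndufa4l2, 1.58 ± 0.27 for Uqcrh, 0.88 ± 0.15 for Sdhd, 0.56 ± 0.16 for Atp5g1 and -0.69 ± 0.17 for Ndufa6. Of these, Uqcrh, Sdhd, Atp5g1 and Ndufa4l2 were lower than WT in undifferentiated Jarid2 null cells. The count was 2 without Jarid2 null library 2 at 48 h, undifferentiated Jarid2 null library 1 or undifferentiated WT library 1, 3 without WT library 2 at 48 h, and 10 without undifferentiated WT library 2. Without that last library the mesoderm series kept 0 calls, and without WT library 1 at 48 h it gave 2.

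In the bulk embryoid body series, whose day 0 samples are monolayer, the module took 0.752% to 1.33% of counts per sample. The lines labelled null were compared with their control lines over days 0, 2, 4 and 7 (limma with day as a block, 4 pairs of samples per line, 94 members tested). For the line labelled Mtf2 null, 2 members were lower and 0 higher, against 7.51% of all genes. Ndufaf1, an assembly factor of complex I, was at 21.1, 34.3, 15.8 and 17.4 CPM on the 4 days against 47.4, 70.2, 36.5 and 40.6 CPM in Pcl1-3 WT. It was lower on all 4 days, by 1.14 ± 0.16 on the log2 scale (limma adjusted p = 0.0121). Uqcrq was at 61.8, 170, 58.6 and 48.2 CPM against 105, 219, 121 and 154 CPM (-0.96 ± 0.22). The median difference of the members moved from 0.04 and 0.25 on days 0 and 2 to -0.15 and -0.46 on days 4 and 7, where 14 of 94 members were higher, with all-gene medians of 0.00, 0.11, 0.06 and 0.07. The ribosomal protein genes moved alike, at 0.17, 0.52, -0.45 and -0.85.

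Ndufa12, higher in Mtf2 null cells of the directed series, was at 42.6, 106, 38.4 and 25.8 CPM in the samples labelled Mtf2 null and at 71.1, 107, 74.7 and 83.2 CPM in Pcl1-3 WT. It was lower on each of the 4 days, by 0.84 ± 0.26 on the log2 scale, and did not pass the test (limma adjusted p = 0.0882). Ndufs5 was at 22.4, 55.1, 18.5 and 18.6 CPM against 39.96, 55.6, 37.05 and 44.8 CPM. The targeted gene was well expressed in these samples, as given above.

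For the line labelled Jarid2 null, 15 members were lower than in JM8 and 1 was higher, against 6.86% and 6.55% of all genes. Of the lower ones, 9 belonged to complex I, among them Ndufa10, Ndufa12, Ndufb8, Ndufs1 and Ndufv1. Ndufs1 was at 125, 155, 109 and 92.7 CPM on days 0, 2, 4 and 7 against 197, 273, 185 and 153 CPM. It was lower on each of the 4 days, and the difference was -0.74 ± 0.10 (limma adjusted p = 0.00918). Ndufa12 was at 59.4, 34.5, 30.7 and 24.9 CPM against 63.4, 77.3, 67.0 and 52.02 CPM (-0.85). Atp5g1 was lower by 0.78, and the others were Uqcrq, Cox5b, Cox8a, Sdhaf2 and Atp5h. Ndufa4l2 was higher, at 11.6, 15.5, 29.5 and 18.3 CPM against 11.2, 3.76, 7.79 and 4.76 CPM (1.43 ± 0.35). Of the ribosomal protein genes 17 of 77 were lower, and 3 of 4 endoderm markers were higher. Without day 0, 11 members were called, and without day 2, 4 or 7 the calls were 4, 0 and 0.

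For the line labelled Eed null, 2 members were higher and 3 lower than in J1, against 4.48% and 4.25% of all genes. Cox6b2 was at 9.16, 5.00, 7.36 and 5.89 CPM against 21.3, 9.91, 14.0 and 19.5 CPM and was lower on all 4 days (-1.17 ± 0.23, limma adjusted p = 0.0335). Cox5b (-0.49 ± 0.11) and Uqcrc1 (-0.46 ± 0.09) were lower and Ndufc1 (0.54) and Atp5f1 (0.50) higher. Leaving out any 1 day left 0 calls here, and for the line labelled Mtf2 null it left 1 without day 0 or day 7 and 0 without day 2 or day 4. edgeR on the recovered reads called 1, 16 and 3 members for the 3 lines, and limma called 0 in each without the day block or without the filter on low values.

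**Figure D4:**
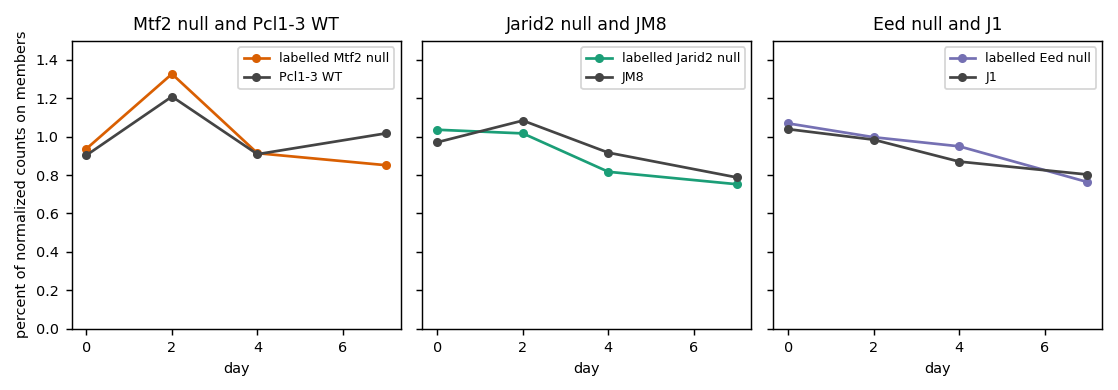
Percent of normalized counts on the 97 members in the table (y axis, from 0) by day of embryoid body differentiation (x axis), for each line labelled null and its control line, 1 sample per point. Samples of day 0 are monolayer. The shares lie between 0.752% and 1.33%, and the line labelled Mtf2 null passes from above to below its control between days 2 and 7.

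In the single-cell libraries, the module took 1.71% of unique molecular identifiers (UMIs) in WT cells on day 0 and 1.959%, 1.64% and 1.68% on days 4, 7 and 10. Each library held 202 to 347 of the 4949 cells, whose median depth ran from 4997 to 10603 UMIs by library, all 384 well numbers recurred in more than 1 library, and there was 1 library per genotype and day, so no day had replicates. No test was run on these libraries. On day 0 the share was above WT by a ratio of 1.11 in Mtf2 null (95% interval 1.09 to 1.12, from a normal approximation of the log ratio, counting error only), 1.19 in Jarid2 null and 1.16 in Eed null cells. On days 4, 7 and 10 the ratios were 0.934, 1.06 and 0.909 in Mtf2 null and 0.952, 1.06 and 1.01 in Jarid2 null cells. Eed null cells were above WT on days 4 and 7 (1.14 and 1.16) and below on day 10 (0.898). Ribosomal protein genes stood at ratios of 1.46, 1.5 and 1.235 on day 0 in Mtf2, Jarid2 and Eed null cells. On day 4 they stood at 0.747, 0.721 and 0.800, and their part was not tested. In undifferentiated bulk cells of the mesoderm and endoderm series, the module's share lay below WT in Mtf2 null and Jarid2 null cells. Series means were 0.738% and 0.707% in Mtf2 null, 0.837% and 0.810% in Jarid2 null, and 0.886% and 0.851% in WT.

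Shares differed among the 22 clusters of the deposited annotation, whose classes are those named by the study. They ran from 1.27% in cluster 11, an ectodermal cluster, to 2.33% in cluster 9, of whose 258 cells 257 were Eed null. The study clustered on its most variable genes, which may include members. The 3 mesodermal clusters lay at 1.51%, 1.63% and 1.64% and the endodermal cluster at 1.69%. The other ectodermal clusters, 1, 15 and 16, lay at 1.70%, 1.56% and 1.745%. The 4 early differentiating clusters lay between 1.82% and 1.95%. Clusters 0, 3 and 8, which the study describes as undifferentiated cells, lay at 1.925%, 1.735% and 2.065%. Ribosomal protein genes took 5.40% of UMIs in cluster 11 and 7.73% in cluster 9, and the median UMIs per cell were 4226 and 4917.

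**Figure D5:**
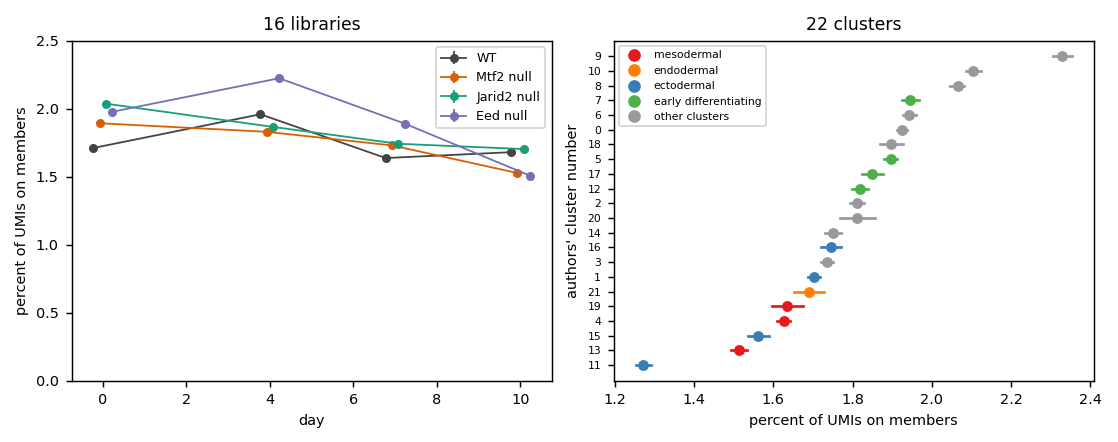
Left: percent of UMIs on the 95 member symbols (y axis, from 0) in each of the 16 single-cell libraries by day (x axis). Right: the same share (x axis) in each of the 22 clusters (y axis), coloured by class; bars are exact 95% binomial intervals, which cover counting error only, and cluster 11 is lowest at 1.27% and cluster 9 highest at 2.33%.

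Several members named above could be followed in single cells. Ndufa12 was at 70.6, 97.1, 123 and 88.7 CPM of UMIs (scaled to each library's total UMIs) in WT on days 0, 4, 7 and 10 and at 126, 146, 143 and 123 in Mtf2 null cells. Jarid2 null cells were at 133, 129, 141 and 106 and Eed null cells at 101, 112, 123 and 85.1. Ndufs5 was at 42.8, 45.3, 58.9 and 51.5 in WT and at 75.6, 70.6, 76.9 and 64.8 in Mtf2 null cells; each Jarid2 null (55.9 to 72.9) and Eed null library (76.4 to 85.1) also lay above the WT library of its day. Cox7c was above WT in the Mtf2 null and Jarid2 null libraries of all 4 days, with 403 CPM in WT, 632 in Mtf2 null and 942 in Jarid2 null cells on day 0.

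Ndufa4l2 had 94 UMIs in WT on day 0, against 1 in Mtf2 null, 4 in Jarid2 null and 46 in Eed null cells. After scaling to the total UMIs, the ratio to WT was 0.00818 in Mtf2 null (exact 95% interval 0.000205 to 0.0467), 0.0396 in Jarid2 null (0.0106 to 0.105) and 0.431 in Eed null cells (0.296 to 0.619). On day 4 the ratios were 0.243, 0.259 and 0.639, from 190 UMIs in WT. By day 10, Mtf2 null cells were at 0.925 (0.588 to 1.47), an interval that holds 1, and Jarid2 null cells at 0.207 (0.0876 to 0.440). Each of these values rests on 1 library per genotype and day.

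Eed null cells differed from WT in the complex IV isoform genes Cox6b2 and Cox4i2 on all 4 days. For Cox7a1 the ratios were 1.87, 1.67, 1.31 and 1.04, and each interval held 1. Cox6b2 was at ratios of 0.478, 0.427, 0.323 and 0.328 to WT, and all 4 intervals lay below 1, the highest bound being 0.571. Lower Cox6b2 was not particular to Eed null cells. Its ratios were 0.51, 0.643, 0.761 and 0.725 in Mtf2 null cells, with all 4 intervals below 1. In Jarid2 null cells they were 0.673, 0.794, 1.02 and 0.623, and only the interval of day 7 held 1. Cox4i2 was at ratios of 3.96, 3.42, 2.25 and 3.78, with 54, 72, 35 and 105 UMIs in Eed null cells. Cox8c, known as the testis isoform of subunit 8, had 15, 15, 13 and 7 UMIs in Eed null cells, and 0 or 1 in each of the other 12 libraries. A count of 0 allows up to 3 UMIs in such a library.

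In the directed series Cox8c did not pass the filter on low counts, with at most 0.426 CPM in any library, nor did Cox7b2 (up to 1.09 CPM) or the read-through gene that shares the symbol Atp5o (up to 0.657 CPM). Cox8b, a muscle isoform, was listed at 0 in all 48 directed libraries. Cox6a2, its counterpart in subunit 6a, passed in the mesoderm series only.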

How the data were processed

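The members were chosen by symbol, and the members, gene lists and tests were set with earlier results of these data known. For the directed series, the authors deposited estimated counts per gene, which they made with Salmon (GRCm38). These were rounded to whole numbers, genes were kept by filterByExpr (minimum count 10, total 15), scaled by TMM and tested with the edgeR 4.0.16 quasi-likelihood test, all 24 libraries of a series in 1 fit, with Benjamini-Hochberg adjustment over 18361 genes (mesoderm), 19261 (endoderm) and 16655 (undifferentiated cells of both series). For the bulk embryoid bodies, the deposited signal values are Salmon counts divided by 1 DESeq2 size factor per column. A sample had up to 2 columns, mostly marked r1 and r2 and often with different library codes. The columns of a sample were averaged, so the spread between them did not enter the test. Then 15842 genes at 1 CPM or more in at least 4 samples were kept, and log2 CPM (prior count 2) was tested with limma 3.58.1 with day as a block. Whole reads, within 0.02, were recovered from 45 of 46 columns for 100% of values, with 3005707 to 22944105 reads per column. For single cells, the deposited counts are UMIs per gene and cell (Bowtie2, HTSeq), from which the authors had removed cells with fewer than 500 genes; UMIs were summed per library, with no test and no doublet caller, and the clusters are the authors'.

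CPM are TMM-scaled, SE are those of the fitted log2 fold change, and intervals have a level of 95% and cover counting error only (exact binomial for shares and count ratios, normal on the log scale for ratios of shares). Genes were named by a rule: up to 5 members per direction with the largest change among those past an adjusted p of 0.05, apart in every library and at 5 CPM or more; members past the study's limits (adjusted p 0.001, log2 change 1); isoform sets; and core subunits. For the genes of largest change, libraries that do not overlap were thus a condition of naming and add no support. With such libraries, the sign of a change can hardly turn when 1 library is left out. Genes outside the rule (such as Sdhc, Ndufa6 and Uqcrc2) were chosen after their values were seen. A pair of endoderm columns whose names give 28 h were taken as Jarid2 null at 48 h by their library numbers. On simulated data with the mesoderm and endoderm library sizes, 55 and 56 of 100 genes changed by a log2 of 1 were recovered, and 10 and 15 of 100 changed by 0.5. The versions of Salmon, Bowtie2 and HTSeq are not given in the sources used here. Deviations of same-numbered directed libraries from their group means correlated at -0.28 to 0.365 (mesoderm) and -0.242 to 0.306 (endoderm), so they were not paired. DESeq2 1.42.0, other scalings, other filters and each library left out were tried as alternatives.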

Additional observations from a re-analysis of the deposited data

Results flagged for a closer look

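The difference between a null line and WT changed between undifferentiated cells and 48 h for some members, by the interaction term of the edgeR fit. In Mtf2 null cells these were 10 of 94 members toward mesoderm (10.6%) and 33 of 93 toward endoderm (35.5%), against 18.1% and 22% of all genes. In Jarid2 null cells toward endoderm they were 5 of 93 (5.38%), against 5.62%. The mesoderm Mtf2 null and the Jarid2 null counts were thus not above the share of all genes in either direction. The 10 and the 33 all moved toward higher levels in Mtf2 null cells, against 7.95% and 11.3% of all genes in this direction, and of the 5 in Jarid2 null cells 4 moved toward higher and 1 toward lower levels, against 2.31% and 3.31%. Glycolytic genes had called interaction terms as well, 14, 12 and 9 of 19 higher in the same order; their part was not tested.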

How the results depend on the processing

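With total counts in place of TMM, the balance of calls turned in Mtf2 null cells toward mesoderm at 5 h (19 calls, 6 higher and 13 lower) and 48 h (17 calls, 5 and 12), and the mesoderm Mtf2 interaction rose to 20. Without the filter on low counts the calls were 16 for that interaction, 23 for Mtf2 null at 24 h toward mesoderm, 1 and 1 for Jarid2 null at 5 and 48 h toward mesoderm and 2 for its interaction, where DESeq2 gave 1. Undifferentiated Jarid2 null cells had 2 calls in the mesoderm table alone and 6 in the endoderm table alone. For the embryoid bodies labelled Mtf2 null, the deposited scaling gave 4 calls, edgeR 1, and no filter or no day block 0 and 0; for those labelled Jarid2 null the latter gave 0 and 0, and for those labelled Eed null 0 and 0, with 3 in edgeR. In single cells, with the mean over cells or without ribosomal protein and mitochondrially encoded genes in the total, the ratio to WT was 1.121 on day 0, 0.9176 and 0.9135 on day 4 and 1.036 on day 7 in Mtf2 null, 1.169 and 1.208, 0.9289 and 1.032 in Jarid2 null, and 1.187 on day 0 and 1.115 on day 4 in Eed null cells. The cause was not tested.

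Leaving out 1 library at a time, calls ranged toward mesoderm from 16 to 33, 27 to 38 and 27 to 43 for WT at 5, 24 and 48 h, from 8 to 11, 4 to 9 and 4 to 10 for Mtf2 null, from 0 to 0, 14 to 67 and 0 to 0 for Jarid2 null, and from 2 to 15 and 0 to 2 for the Mtf2 and Jarid2 interactions. Toward endoderm they ranged from 29 to 55, 40 to 53 and 37 to 57 for WT, from 35 to 42, 25 to 31 and 24 to 40 for Mtf2 null, from 0 to 0, 0 to 0 and 0 to 9 for Jarid2 null, and from 12 to 38 and 2 to 10 for the interactions. In undifferentiated cells the ranges were 34 to 50 for Mtf2 null and 9 to 13 for Jarid2 null, and in embryoid bodies leaving out 1 day gave 0 to 1, 0 to 11 and 0 to 0. With the replicate block, each of the 24 counts of the directed and undifferentiated comparisons stayed within 1.5 times. For the 272 pairs of a named gene and a comparison, 1322 of 1404 alternative fits passed the threshold, as did 993 of 1292 fits without 1 library or day, and 0 turned in direction.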
